A study of Mus musculus with 6 samples.

Results

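A set of 10 receptor chains through which epithelial cells sense interferons, interleukin 6 (IL-6) family cytokines, IL-17 and IL-4 were followed in sorted olfactory stem cells of mice with and without prolonged inflammation driven by tumor necrosis factor (TNF). They are Ifngr1, Ifngr2, Ifnar1, Ifnar2, Il6ra, Il6st, Osmr, Il17ra, Il17rc and Il4ra. Their rows of the deposited expression table were found by gene name, but the set was chosen with earlier results of these data known. All 10 members were found, in 12 of its 44519 rows. Il6ra and Osmr each have another row at the same locus that held 0 to 0.346 FPKM (fragments per kilobase of transcript, scaled to the library's mapped fragments, hence a level per length), so the 10 rows of higher mean were used. Ifnar2 has no row of its own. It shares 1 with the neighbouring Il10rb, the accessory chain of the IL-10, IL-22 and interferon lambda receptors, and with the gene Gm21970, whose exons overlap both, so the level of Ifnar2 alone is uncertain.

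The cells were GFP-positive horizontal basal cells (HBCs), the quiescent reserve stem cells at the base of the olfactory epithelium, sorted from the olfactory neuroepithelium. In the TNF group, 3 libraries (replicates 1, 3 and 4) came from mice of the genotype Krt17-EGFP; Cyp2g1-rtTA; TRE-TNF given doxycycline for 6 weeks. In the control group, 3 libraries (replicates 1, 2 and 4) came from Krt17-EGFP mice labelled as having no doxycycline. Every mouse therefore carried the Krt17-EGFP reporter by which the cells were sorted, and genotype and doxycycline differed together between the groups. Cyp2g1 is a gene of the sustentacular cells, so the transgene is driven in cells that neighbour the HBCs. Strain and age were not given in the labels, and the labels do not say whether each library came from 1 animal, and p-values therefore speak only of the spread between these libraries. TNF replicate 1 stood apart in its group, with correlations across rows of 0.909 and 0.912 to the other TNF libraries, which correlated at 0.983 with each other, and control replicate 4 did so at 0.922 and 0.931, against 0.972 between the other control libraries.

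Cytokine receptors of this kind have no kinase of their own. Interferon gamma binds Ifngr1, which pairs with Ifngr2 to activate the kinases JAK1 and JAK2, and type I interferons use Ifnar1 with Ifnar2 to activate JAK1 and TYK2. Il6st encodes gp130, the chain that most IL-6 family receptors share: IL-6 reaches it through Il6ra and oncostatin M through Osmr, and both complexes act mainly on STAT3. IL-17A and IL-17F bind Il17ra with Il17rc and signal through the adaptor Act1 (gene Traf3ip2) and TRAF6 towards NF-kB, while Il4ra pairs with Il2rg or Il13ra1 to signal through STAT6 in response to IL-4 or IL-13. In mucosal epithelia these inputs are known for switching on antigen presentation, chemokines, antimicrobial proteins and repair genes.

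In all, 4 members were higher in TNF libraries, namely the oncostatin M receptor chain Osmr, the IL-4 receptor chain Il4ra and both chains of the interferon gamma receptor. Of all 15037 rows tested, 10.9% were called higher and 27.2% lower (limma, adjusted p below 0.05), so 4 of 10 members were higher and 0 of 10 lower where the table leaned downward. The median log2 change of the 10 members was 0.82, beside -0.22 over all rows. Under median-of-ratios scaling, which moved the median of all rows to -0.01, 15.2% of rows were higher and 21.4% lower, and 6 members were higher. All members were above 1 FPKM in all 6 libraries, so none entered the test through 1 group alone. The 3 TNF libraries lay above the 3 control libraries for 5 members, the Ifnar2 row being the fifth, as they did at 16.8% of all rows tested, and they lay below for 0 members and at 36.2% of all rows.

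**Figure D1:**
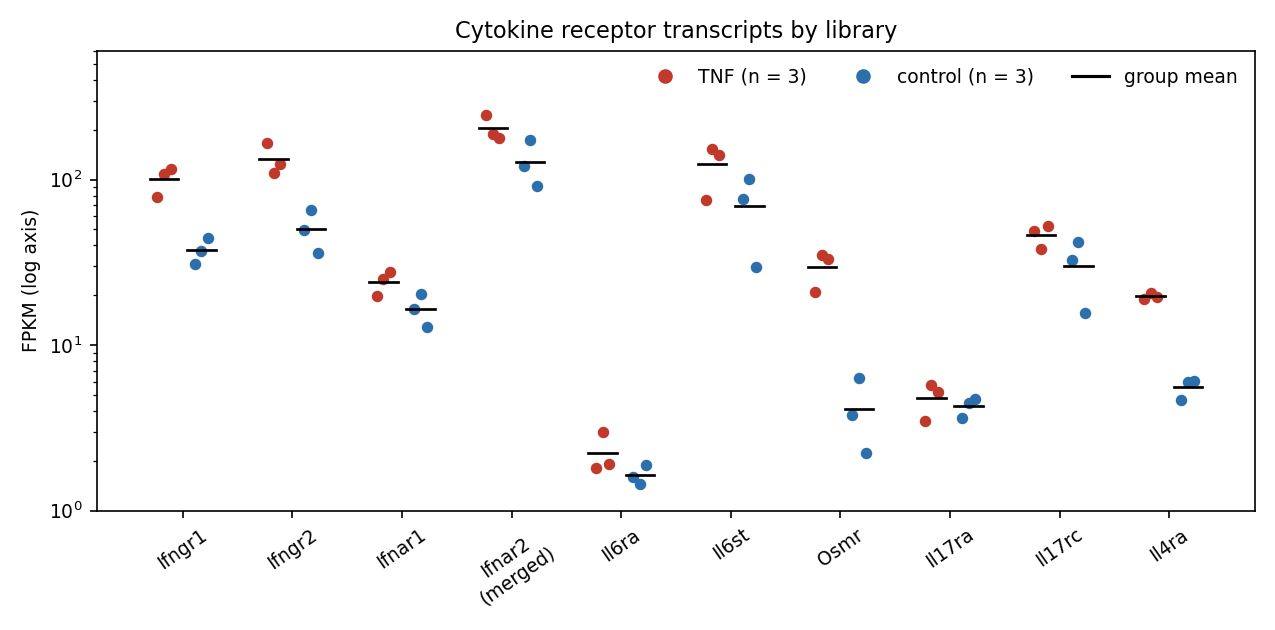
FPKM on a log axis for the 10 receptor chains in each library, with TNF libraries in red, control libraries in blue and group means as black lines. The groups are apart for Ifngr1, Ifngr2, Osmr, Il4ra and, narrowly, for the merged Ifnar2 row, and Osmr shows the widest gap, with group means of 29.6 and 4.12 FPKM.

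The promoters of the members that carry these results, and of Il6st as the partner of Osmr, are shown first, from RefSeq on GRCm38.p6, each from 250 bases before to 50 bases after the start site and written along the gene's own strand. The windows are chr15:6874264-6874563 (minus strand) for Osmr, chr13:112463820-112464119 (plus strand) for Il6st, chr16:91546809-91547108 (plus strand) for Ifngr2, chr10:19591699-19591998 (plus strand) for Ifngr1 and chr7:125552021-125552320 (plus strand) for Il4ra. In the first pair, capitals mark a 9-letter run, TTACGGGAA or its reverse complement. In Ifngr2 and Il4ra, capitals mark a match to the NF-kB consensus, and Ifngr1 held no match to any motif searched.
Osmr: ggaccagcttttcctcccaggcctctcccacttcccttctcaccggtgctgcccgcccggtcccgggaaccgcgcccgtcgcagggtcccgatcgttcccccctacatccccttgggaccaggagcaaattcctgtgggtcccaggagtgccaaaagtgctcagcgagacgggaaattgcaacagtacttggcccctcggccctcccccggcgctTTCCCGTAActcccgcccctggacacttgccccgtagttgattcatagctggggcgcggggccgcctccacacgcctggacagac
Il6st: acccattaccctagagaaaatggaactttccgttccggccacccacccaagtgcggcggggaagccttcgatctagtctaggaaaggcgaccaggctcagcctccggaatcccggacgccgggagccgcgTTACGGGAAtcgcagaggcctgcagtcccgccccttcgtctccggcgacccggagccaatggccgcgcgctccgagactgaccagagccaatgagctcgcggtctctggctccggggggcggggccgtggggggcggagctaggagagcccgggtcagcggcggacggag
Ifngr2: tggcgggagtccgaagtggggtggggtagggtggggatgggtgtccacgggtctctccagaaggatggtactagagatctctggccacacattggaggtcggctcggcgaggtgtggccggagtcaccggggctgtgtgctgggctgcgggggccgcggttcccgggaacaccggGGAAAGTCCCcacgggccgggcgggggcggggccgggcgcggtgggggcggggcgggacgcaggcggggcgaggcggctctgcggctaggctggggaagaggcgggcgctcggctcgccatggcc
Il4ra: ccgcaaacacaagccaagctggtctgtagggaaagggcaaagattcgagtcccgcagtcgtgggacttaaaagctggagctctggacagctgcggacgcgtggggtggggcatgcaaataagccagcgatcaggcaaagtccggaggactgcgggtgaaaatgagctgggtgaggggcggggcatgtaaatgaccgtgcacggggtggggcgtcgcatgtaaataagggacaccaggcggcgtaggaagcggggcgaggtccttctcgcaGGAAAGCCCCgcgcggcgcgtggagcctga
Ifngr1: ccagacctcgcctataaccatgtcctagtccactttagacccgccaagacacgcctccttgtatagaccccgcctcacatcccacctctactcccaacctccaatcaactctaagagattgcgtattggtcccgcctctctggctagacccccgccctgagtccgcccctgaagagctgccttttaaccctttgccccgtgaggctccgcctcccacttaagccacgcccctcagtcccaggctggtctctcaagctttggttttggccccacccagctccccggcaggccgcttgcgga

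The table of promoters held 9 of the 10 members, all but Il17ra. The run TTACGGGAA was picked out on reading the sequences and was then searched for on both strands. It begins at position -120 from the start site in Il6st and, in the reverse direction, at position -35 in Osmr, and it was in neither strand of the other 7 promoters. Of all 32851 promoters of that length, 37 (0.113%) hold it. As the run was picked from these same sequences, that share does not measure how unusual it is that Il6st and Osmr both hold it. The NF-kB consensus was matched in Ifngr2 at position -75 and in Il4ra at position 21, both on the reverse strand, and in 8.46% of all promoters. The interferon gamma-activated sequence TTCNNNGAA was matched in Ifnar1 and Ifnar2, 2 members that were not called, and in 8.30% of all promoters. AP-1 (TGANTCA) was matched in Osmr and in 7.81% of all promoters, and the core of the interferon-stimulated response element in 0 members and in 3.44% of all promoters. These matches are descriptions of letters in 300 bases, and occupancy of these windows was not measured. The Osmr window lies wholly inside the deposited Osmr row, which on the minus strand begins at 6875060. The RefSeq start site used for Osmr is thus downstream of that end, and positions in Osmr depend on this choice.

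Osmr, which makes a cell responsive to oncostatin M and, in mouse, does so largely in place of the leukemia inhibitory factor receptor, changed most (chromosome 15, 6813577 to 6875060, mm10). It stood at 20.8, 35.1 and 33.0 FPKM in TNF replicates 1, 3 and 4, against 3.79, 6.33 and 2.24 FPKM in control replicates 1, 2 and 4. The lowest TNF library was 3.29 times the highest control library, and TNF replicate 1 was the lowest of its group. Group means were 29.6 ± 7.70 FPKM in TNF and 4.12 ± 2.07 FPKM in control libraries (SD, n = 3 each), a 7.20-fold difference of means. On the log2(FPKM + 1) scale, used for all tests here, Osmr rose by 2.63 ± 0.36 (SE, adjusted p = 0.00197, limma).

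Its partner Il6st, the gp130 chain of most IL-6 family receptors (chromosome 13, 112464070 to 112510086), was expressed far above it in both groups. Its FPKM values were 75.2, 154 and 141 in TNF replicates 1, 3 and 4, against 76.5, 101 and 29.8 in control replicates 1, 2 and 4. The groups overlapped, since TNF replicate 1 lay at the level of control replicate 1. Its log2 change of 0.93 ± 0.49 (SE) was not called (adjusted p = 0.185). It lay between 0.41 (without control replicate 4, adjusted p = 0.435) and 1.28 (without control replicate 2, adjusted p = 0.117) when 1 library was left out, and it passed when control replicate 4 and TNF replicate 1 were both left out (0.73, adjusted p = 0.0121). Il6ra, the chain that binds IL-6 itself (chromosome 3, 89864059 to 89914053), was the lowest of the 10 members in both groups. It was at 1.82, 2.97 and 1.91 FPKM in TNF libraries, against 1.61, 1.44 and 1.88 FPKM in control libraries, and its change of 0.28 was not called (95% interval -0.22 to 0.77, adjusted p = 0.340).

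Within a library the ratio of 2 chains does not depend on how the library is scaled, apart from the added 1 FPKM. The FPKM of Osmr over that of Il6st was 0.277, 0.229 and 0.233 in TNF replicates 1, 3 and 4, against 0.0495, 0.0624 and 0.0750 in control replicates 1, 2 and 4. The groups did not overlap, and the log2 ratio differed by 1.70 between them. An exact two-sided permutation test gave p = 0.1, the smallest that 3 against 3 libraries allow, and p = 0.35 adjusted over 7 chain pairs. The FPKM of Il6ra over that of Il6st was 0.0135 to 0.0242 in TNF libraries and 0.0142 to 0.0631 in control libraries, which overlap (exact permutation p = 0.5).

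Both chains of the interferon gamma receptor rose. Ifngr1, the ligand-binding chain (chromosome 10, 19591949 to 19610229), had FPKM values of 77.9, 108 and 116 in TNF replicates 1, 3 and 4, against 31.1, 37.1 and 44.5 in control replicates 1, 2 and 4. Ifngr2, the chain that brings in JAK2 (chromosome 16, 91547072 to 91565169), was at 167, 109 and 125 FPKM in TNF libraries, against 49.8, 65.0 and 35.8 FPKM in control libraries. All TNF libraries were above all control libraries for both genes, but the order within groups differed: TNF replicate 1 was the lowest TNF library for Ifngr1 and the highest for Ifngr2, and control replicate 4 was the highest control for Ifngr1 and the lowest for Ifngr2. Ifngr1 rose by 1.39 ± 0.22 (SE, adjusted p = 0.00323, limma) and Ifngr2 by 1.41 ± 0.27 (SE, adjusted p = 0.00675). The means were 101 FPKM in TNF and 37.6 FPKM in control libraries for Ifngr1, and for Ifngr2 134 ± 30.1 FPKM in TNF and 50.2 ± 14.6 FPKM in control libraries (SD, n = 3 each). The log2 ratio of Ifngr2 to Ifngr1 averaged 0.41 ± 0.60 in TNF and 0.38 ± 0.60 in control libraries (SD, n = 3 each), with an exact permutation p = 1, which does not show that the chains moved alike. Its difference between groups was 0.02, -0.32 without TNF replicate 1 or without control replicate 4, and -0.66 without both, when Ifngr1 rose by 1.69 and Ifngr2 by 1.02.

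The type I interferon receptor chains moved less. Ifnar1 (chromosome 16, 91485238 to 91507441), which brings in TYK2, was at 19.8, 25.1 and 27.6 FPKM in TNF libraries, against 16.5, 20.3 and 12.8 FPKM in control libraries. The groups overlapped between TNF replicate 1 and control replicate 2, and the change of 0.53 was not called (interval -0.01 to 1.07, adjusted p = 0.108). The merged row of Ifnar2, Il10rb and Gm21970 (chromosome 16, 91372783 to 91425834) was at 246, 188 and 178 FPKM in TNF libraries, against 121, 173 and 91.5 FPKM in control libraries. Its lowest TNF library was 1.03 times its highest control library, and its change of 0.70 was not called (interval 0.06 to 1.34, adjusted p = 0.0836). Both were called under median-of-ratios scaling, with changes of 0.75 for Ifnar1 (adjusted p = 0.0437) and 0.92 for the Ifnar2 row (adjusted p = 0.0308). Ifnar1 also passed without control replicate 4 and TNF replicate 1 (0.50, adjusted p = 0.0347), and the Ifnar2 row without control replicate 2 (0.93, adjusted p = 0.0428). On chromosome 16 the Ifnar2 row with Il10rb, Ifnar1 and Ifngr2 lie near each other in this order. Between them are 59.4 kb with 1 other row and 39.6 kb with 3 other rows. Of these members Ifngr2 alone was called.

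Il4ra, the chain common to the IL-4 and IL-13 receptors (chromosome 7, 125552241 to 125579591), had the narrowest spread of the members that rose. Its FPKM values were 19.1, 20.6 and 19.7 in TNF replicates 1, 3 and 4, against 4.65, 5.99 and 6.09 in control replicates 1, 2 and 4. The groups were apart by a factor of 3.14 between the lowest TNF and the highest control library. Il4ra rose by 1.67 ± 0.18 (SE, adjusted p = 0.00103, limma), with means of 19.8 ± 0.737 FPKM in TNF and 5.57 ± 0.804 FPKM in control libraries (SD, n = 3 each). Its exons overlap those of Gm44876 on the opposite strand.

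Of the chains that pair with it, Il13ra1, with which it forms the receptor of non-haematopoietic cells, was at 115, 150 and 148 FPKM in TNF libraries, against 40.5, 48.0 and 24.1 FPKM in control libraries, and rose by 1.89 ± 0.27 (SE, adjusted p = 0.00252). The ratio of Il4ra to Il13ra1 overlapped between groups, with FPKM ratios of 0.133 to 0.166 in TNF and 0.115 to 0.253 in control libraries (exact permutation p = 0.9). Il2rg, the common gamma chain of lymphocytes, shares a row with Gm614 and Gm20489. That row was at 3.79, 27.7 and 31.9 FPKM in TNF libraries, against 11.1, 17.8 and 52.5 FPKM in control libraries, and was not called (adjusted p = 0.698). Its highest value lay in control replicate 4, where the leukocyte lists described below also sum highest. Its lowest lay in TNF replicate 1. There the myeloid and B and plasma cell sums were above those of control replicates 1 and 2, and the T and NK cell and neutrophil sums below them. The part of leukocytes in this row was not tested. The log2 ratio of Il4ra to the Il2rg row was above every control library in every TNF library, with a difference of 2.14 (exact permutation p = 0.1, and 0.35 adjusted over 7 chain pairs). TNF replicate 1 weighed most on it, with an FPKM ratio of 5.05, against 0.744 and 0.616 in TNF replicates 3 and 4 and 0.116 to 0.420 in control libraries. The difference was 1.27 without TNF replicate 1 and 0.72 without it and control replicate 4.

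The IL-17 receptor chains were not called. Il17ra, the chain shared by most IL-17 receptors (chromosome 6, 120463197 to 120483727), was at 3.46, 5.71 and 5.21 FPKM in TNF libraries, against 3.64, 4.48 and 4.75 FPKM in control libraries. The groups lay within each other, and its change was 0.12 (interval -0.45 to 0.68, adjusted p = 0.734). Il17rc, which completes the IL-17A and IL-17F receptor (chromosome 6, 113471427 to 113483140), was at 48.7, 38.0 and 52.8 FPKM in TNF libraries, against 32.9, 41.7 and 15.6 FPKM in control libraries. Its change of 0.71 was not called (interval -0.15 to 1.56, adjusted p = 0.168). Il17rc FPKM was 6.66 to 14.0 times that of Il17ra in TNF libraries and 3.29 to 9.31 times in control libraries (exact permutation p = 0.4).

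**Figure D2:**
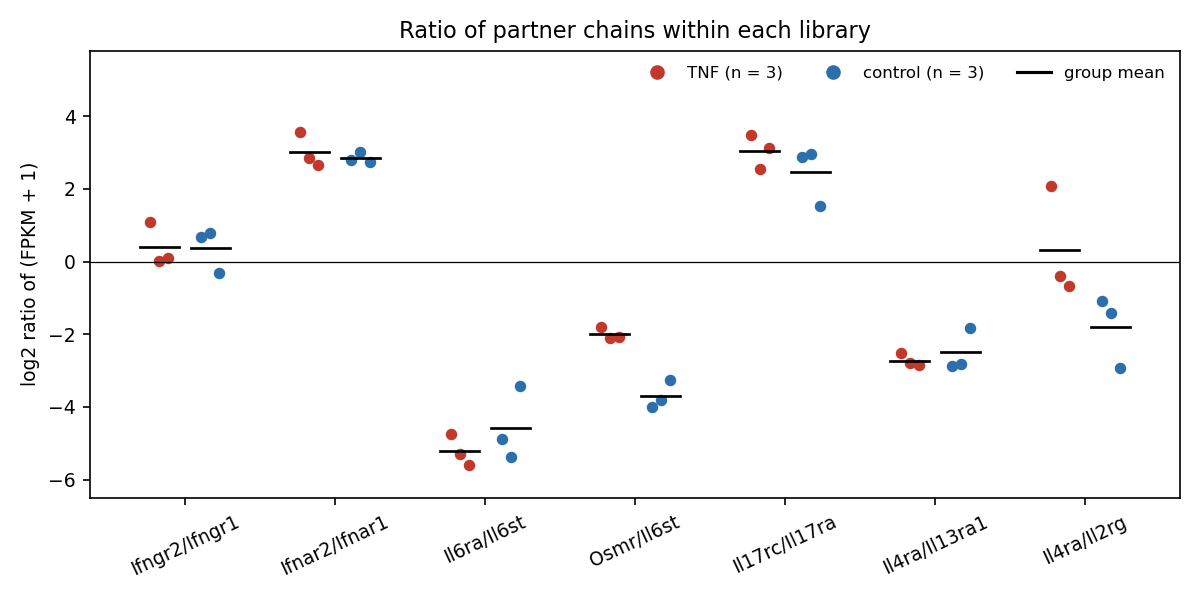
Log2 ratio of (FPKM + 1) between 7 pairs of receptor chains in each library, with TNF libraries in red, control libraries in blue and group means as black lines. The Ifnar2 and Il2rg values are those of merged rows. Groups are apart for Osmr over Il6st, with means of -1.99 and -3.69, and for Il4ra over Il2rg, and they overlap for the other 5 pairs.

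By FPKM, the Ifnar2 row was the most abundant member in both groups. In TNF libraries it was followed by Ifngr2, Il6st and Ifngr1 at means of 134, 123 and 101 FPKM, whose ranges overlap from each to the next, then by Il17rc at 46.5 FPKM, by Osmr, Ifnar1 and Il4ra at 29.6, 24.2 and 19.8 FPKM, again with overlapping neighbours, and by Il17ra and Il6ra at 4.79 and 2.23 FPKM. In control libraries the 5 most abundant were the same genes, each overlapping the next, while Osmr stood ninth at 4.12 FPKM and overlapped Il17ra at 4.29 and Il17ra overlapped Il4ra at 5.57. Within the TNF group, replicate 1 was the lowest library for 7 of 10 members, and within the control group replicate 4 was the lowest for 6.

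Cell type markers differed between the groups. HBC markers summed to 7487, 4927 and 4720 FPKM in TNF replicates 1, 3 and 4, against 2520, 3159 and 773 FPKM in control replicates 1, 2 and 4. Most of each sum was the merged row of Krt14 and Krt17, which was not called (limma, adjusted p = 0.0741). That row held 5651, 3793 and 3645 FPKM in the TNF libraries, against 1768, 2265 and 402 FPKM in the control libraries. Of 13 HBC rows tested 6 were higher and 0 lower, where 10.9% of all rows were higher. Trp63, the factor that keeps HBCs at rest, was at 79.7 to 117 FPKM in TNF and 68.6 to 86.1 FPKM in control libraries and was not called. In bulk values, a change in the share of a cell type and a change in RNA per cell cannot be told apart. None of the 13 HBC rows was at 0 in any library, while markers of other cells were present too. Mature neuron markers summed to 1108, 45.1 and 35.6 FPKM in TNF replicates 1, 3 and 4. In control replicates 1, 2 and 4 they summed to 3459, 3226 and 6388 FPKM, above the HBC sum of each. Sums of different lists do not measure cell shares. All 8 mature neuron markers and all 7 immature neuron markers tested were lower, where 27.2% of all rows were. So were 11 of 14 myeloid, 3 of 5 T and NK cell, 4 of 7 B and plasma cell and 2 of 3 neutrophil markers. The same held for 4 of 6 sustentacular, 3 of 7 globose basal cell and 3 of 3 red blood cell markers. None of these lists was higher in any row. All T and NK cell markers called lower passed the filter on low values through control values alone. Some myeloid, B and plasma cell and immature neuron markers did so too. For these rows a fall was built into their being tested. Fibroblast (1 of 7 higher), endothelial (0 of 6), gland (1 of 6 higher) and ciliated cell markers (1 higher and 3 lower of 5) moved less evenly.

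Myeloid markers summed to 191 to 574 FPKM in TNF and 347 to 1725 FPKM in control libraries, and T and NK cell markers to 9.20 to 13.4 FPKM in TNF and 20.9 to 83.2 FPKM in control libraries, with control replicate 4 the highest for both. B and plasma cell markers summed to 434 to 648 FPKM in TNF libraries, above 2 of the control libraries, which ranged over 100.5 to 951 FPKM. Fibroblast markers summed to 73.5 FPKM in TNF replicate 1, to 1124 and 1603 FPKM in TNF replicates 3 and 4 and to 150 to 537 FPKM in control libraries, and endothelial markers to 4.16 FPKM in TNF replicate 1, to 96.6 and 149 FPKM in TNF replicates 3 and 4 and to 32.7 to 42.2 FPKM in control libraries. TNF replicate 1, where both stromal sums lay below every control library, was the lowest TNF library for Osmr, Ifngr1 and Il4ra and the highest for Ifngr2, and it was above every control library for all 4. The part of these cell types in the members' values was not tested.

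**Figure D3:**
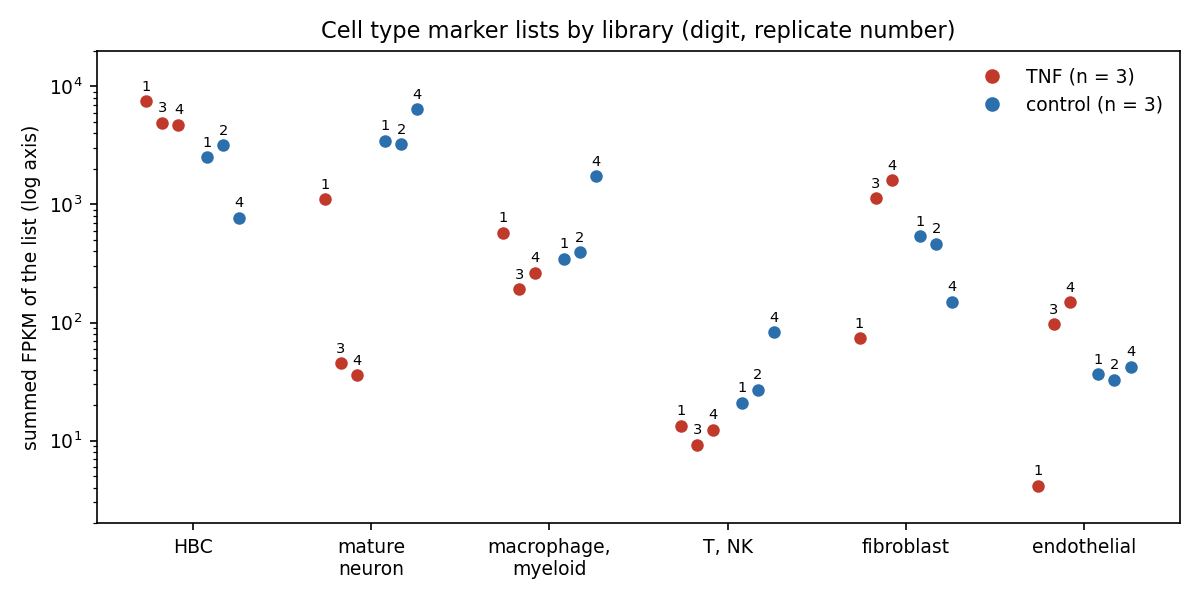
Summed FPKM of 6 cell type marker lists on a log axis in each library, with TNF libraries in red, control libraries in blue and the replicate number above each point. HBC sums, most of each from the merged row of Krt14 and Krt17, are higher in TNF libraries. Fibroblast and endothelial sums are lowest in TNF replicate 1, at 73.5 and 4.16 FPKM.

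Because HBC markers moved, the members were also set against them. With libraries scaled to the median of the HBC list, 1 of 10 members was called higher, where 1.63% of rows were called higher and 64.6% lower and the median of all rows was -1.45. Osmr was that member, with a log2 change of 1.41 (adjusted p = 0.0239). Il4ra stood at 0.39 (adjusted p = 0.500), Ifngr2 at 0.04 (adjusted p = 0.933) and Ifngr1 at 0.02 (adjusted p = 0.973), and the other 6 members had negative changes, of which none was called. Control replicate 4 weighed heavily on this scaling, with a factor of 0.346, against 0.778 and 0.873 for control replicates 1 and 2. After scaling, Il4ra was at 9.997, 13.4 and 13.6 in TNF replicates 1, 3 and 4, against 5.97, 6.85 and 17.6 in control replicates 1, 2 and 4, and Ifngr1 at 40.8, 70.1 and 80.1 in the TNF libraries, against 40.0, 42.5 and 129 in the control libraries. With control replicate 4 left out of the scaled fit, an alternative chosen after the data were seen, 3.31% of rows were higher and 64.6% lower, and the median of all rows was -0.998. Osmr (1.44, adjusted p = 0.0172) and Il4ra (0.84, adjusted p = 0.0171) were then higher, Ifngr1 (0.56, adjusted p = 0.154) and Ifngr2 (0.23, adjusted p = 0.279) were not called, and the Ifnar2 row (-0.49, adjusted p = 0.0448) and Il17rc (-0.64, adjusted p = 0.0443) were lower. That list holds genes that were themselves called higher, among them the integrin gene Itgb4 and the laminin gene Lama3. Scaled to Trp63 alone, a reference chosen after the data were seen, the 4 members stayed higher, where 6.06% of rows were called higher and 36.7% lower and the median of all rows was -0.53. The changes were then 2.32 for Osmr (adjusted p = 0.00383), 1.34 for Il4ra (adjusted p = 0.00810), 1.06 for Ifngr2 (adjusted p = 0.0141) and 1.04 for Ifngr1 (adjusted p = 0.0400). Osmr was at 17.8%, 37.1% and 41.3% of Trp63 FPKM in TNF replicates 1, 3 and 4, against 4.40%, 8.88% and 3.26% in control replicates 1, 2 and 4.

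**Figure D4:**
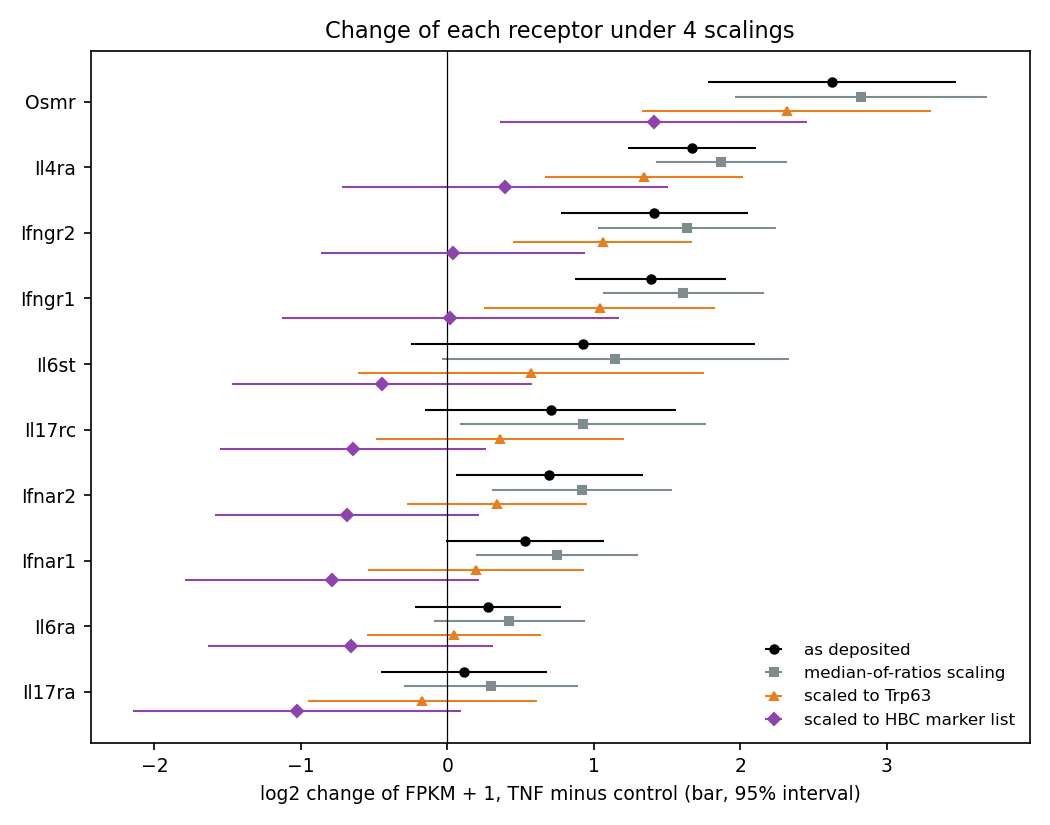
Log2 change of FPKM + 1 with its 95% interval from limma, TNF minus control, for each member as deposited (black), after median-of-ratios scaling (grey), scaled to Trp63 (orange) and scaled to the HBC marker list (purple). Osmr is above 0 with its interval in all 4, while Ifngr1 and Ifngr2 lie at 0.02 and 0.04 in the last.

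Among 17 other receptor chains of the same families, 14 rows passed the filter on low values, with a median log2 change of 0.49. Of these, 5 were higher and 1 lower, where 10.9% of all rows were higher and 27.2% lower. The lower one, the IL-10 receptor chain Il10ra, was tested through control values alone. Il13ra2, a high-affinity IL-13 receptor known mainly as a decoy, was at 6.00, 4.32 and 5.62 FPKM in TNF libraries, against 0.199, 0.0912 and 0.0779 FPKM in control libraries, and rose by 2.48 ± 0.19 (SE, adjusted p = 0.000411). It passed the filter through its TNF values alone, so a difference was built into its being tested. Lifr, the receptor chain for leukemia inhibitory factor, lies 254 kb from Osmr on chromosome 15, with 1 other row between them. Lifr was at 14.5, 11.6 and 12.2 FPKM in TNF libraries, against 4.35, 4.93 and 3.27 FPKM in control libraries. It rose by 1.42 ± 0.21 (SE, adjusted p = 0.00295). The merged row of Il20rb, a chain of the IL-20 and IL-24 receptors, with Nck1 rose by 1.01 ± 0.16 (SE, adjusted p = 0.00375). Scaled to the HBC list, 1 of these chains was higher and 3 were lower, where 1.63% of all rows were higher and 64.6% lower. Without control replicate 4 and TNF replicate 1, 6 were higher and 0 lower, where 19.8% of all rows were higher and 32.7% lower.

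Transcripts of the ligands were mostly low in the sorted cells. Of 18 matched, 9 were tested, with a median change of -0.45. Of these, 1 was higher and 3 lower, where 10.9% of all rows were higher and 27.2% lower. Scaled to the HBC list 0 ligands were higher and 6 lower, where 1.63% of all rows were higher and 64.6% lower. Scaled to Trp63 1 was higher and 6 were lower, where 6.06% of all rows were higher and 36.7% lower. Without control replicate 4 and TNF replicate 1, 2 were higher and 1 lower, where 19.8% of all rows were higher and 32.7% lower. Osm, the ligand of Osmr, was at 1.03, 0.298 and 0.499 FPKM in TNF libraries, against 1.46, 2.02 and 9.02 FPKM in control libraries. It was not called (limma, adjusted p = 0.0793). Il6 was not low, at 4.69, 82.2 and 90.5 FPKM in TNF libraries, against 37.3, 31.5 and 12.6 FPKM in control libraries. Il6 was not called either (limma, adjusted p = 0.773). Lif, which signals through Lifr and gp130, was at 6.70, 12.2 and 10.8 FPKM in TNF libraries, against 2.55, 3.20 and 0.391 FPKM in control libraries, and rose by 1.95 ± 0.46 (SE, adjusted p = 0.0161), though not without TNF replicate 3 (adjusted p = 0.0585) or 4 (adjusted p = 0.0518). Il17a was listed at 0 in all TNF libraries, against 3.15, 2.38 and 5.60 FPKM in control libraries, and Il17f at 0.0711, 0 and 0 FPKM in TNF libraries, against 1.89, 2.63 and 2.85 FPKM in control libraries. Il17a and Il17f fell (adjusted p = 0.00141 and 0.000779), as did Il17b (adjusted p = 0.00997), and all 3 passed the filter through control values alone. T and NK cell markers, given above, were lower in the same libraries, and their part in these values was not tested.

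The signal transducers and their inhibitors were higher more often than lower. Of 12 transducer genes tested 6 were higher and 0 lower, where 10.9% of all rows were higher and 27.2% lower. Their median was 0.85. Stat3, the factor of the IL-6 family, was at 218, 238 and 207 FPKM in TNF libraries, against 60.0, 63.7 and 51.1 FPKM in control libraries, and rose by 1.91 ± 0.16 (SE, adjusted p = 0.000476). Stat6, the factor of IL-4 and IL-13, rose by 1.15 ± 0.23 (SE, adjusted p = 0.00897) and the merged row of Irf9, a factor of the type I interferon response, and Rnf31 by 1.13 ± 0.17 (SE, adjusted p = 0.00296). Scaled to the HBC list 0 transducers were called, where 1.63% of all rows were higher and 64.6% lower. Scaled to Trp63 2 were higher and 0 lower, where 6.06% of all rows were higher and 36.7% lower.

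Of 11 inhibitors 5 were higher and 2 lower, where 10.9% of all rows were higher and 27.2% lower. Their median was 0.90. Socs3, which blocks gp130, was at 431, 943 and 878 FPKM in TNF libraries, against 225, 183 and 117 FPKM in control libraries, and rose by 2.07 ± 0.38 (SE, adjusted p = 0.00644). Socs1, which blocks JAK kinases at interferon receptors, rose by 1.43 ± 0.24 (SE, adjusted p = 0.00469). Zc3h12a, an RNase that limits IL-17 and Toll-like responses, rose by 2.13 ± 0.47 (SE, adjusted p = 0.0121), though not without control replicate 1 (adjusted p = 0.0599), and the phosphatase gene Ptpn6 fell by 1.26 ± 0.23 (SE, adjusted p = 0.00573). Scaled to the HBC list 0 inhibitors were higher and 4 lower, where 1.63% of all rows were higher and 64.6% lower. Scaled to Trp63 3 were higher and 2 lower, where 6.06% of all rows were higher and 36.7% lower.

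Known targets of the 4 receptor families were followed as lists, several of which other signals, TNF included, also induce. Of all rows, 10.9% were higher and 27.2% lower as deposited, and 1.63% higher and 64.6% lower when scaled to the HBC list. Of 16 interferon targets 13 were higher and 0 lower, with a median of 2.17, and 5 were higher when scaled to the HBC list. Psmb9 and Tap1, overlapping genes of antigen processing, rose by 2.57 ± 0.27 and 3.07 ± 0.36 (SE), the antiviral gene Oas1a to a mean of 18.6 FPKM in TNF libraries, against 3.65 FPKM in control libraries, and B2m, the light chain of class I molecules, by 3.25 ± 0.40 (SE), with adjusted p between 0.000937 and 0.00151. Of 12 IL-6 family targets 7 were higher and 0 lower, with a median of 1.18. Bcl3 was at 106, 128 and 104 FPKM in TNF libraries, against 9.67, 16.3 and 9.57 FPKM in control libraries (adjusted p = 0.000397), the acute-phase gene Saa3 rose by 4.92 ± 0.66 (SE, adjusted p = 0.00193), the protease inhibitor gene Timp1 by 2.96 ± 0.43 (SE, adjusted p = 0.00260) and the transcription factor gene Cebpd by 2.29 ± 0.50 (SE, adjusted p = 0.0121). Scaled to the HBC list, 4 of the IL-6 family targets were higher and 2 lower. With control replicate 4 and TNF replicate 1 left out 11 were higher, where 19.8% of all rows were.

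Of 11 IL-17 targets 4 were higher and 2 lower, where 10.9% of all rows were higher and 27.2% lower. Their median was 1.09. With control replicate 4 and TNF replicate 1 left out, 6 were higher and 3 lower, where 19.8% of all rows were higher and 32.7% lower. Pigr, which carries antibodies across epithelia, was at 33.9, 118 and 110 FPKM in TNF libraries, against 2.94, 4.04 and 2.17 FPKM in control libraries, and rose by 4.28 ± 0.49 (SE, adjusted p = 0.00117), and the growth factor gene Csf3 rose by 2.82 ± 0.28 (SE, adjusted p = 0.000796). Csf3 passed the filter through its TNF values alone, at 5.38, 7.90 and 11.9 FPKM in TNF libraries, against 0.307, 0.309 and 0.207 FPKM in control libraries. The calprotectin genes S100a8 and S100a9, which neutrophils also express, fell by 2.59 ± 0.35 and by 2.94 ± 0.30 (SE, adjusted p = 0.00197 and 0.000815). Of 8 IL-4 and IL-13 targets tested 2 were higher and 1 lower, with a median of 0.87, and 7 of the 15 listed did not pass the filter. Without control replicate 4 and TNF replicate 1, 5 were higher and 1 lower. Alox15, a lipoxygenase gene induced by IL-4 and IL-13, was at 175, 178 and 164 FPKM in TNF libraries, against 12.9, 14.0 and 11.6 FPKM in control libraries, and rose by 3.65 ± 0.14 (SE, adjusted p = 0.000291). The goblet cell factor Spdef rose by 1.39 ± 0.26 (SE, adjusted p = 0.00629). Cdh26, a cadherin gene, fell by 0.88 ± 0.28 (SE, adjusted p = 0.0474), which did not hold when any 1 TNF replicate, or control replicate 1 or 2, was omitted (adjusted p = 0.0647 to 0.168).

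**Figure D5:**
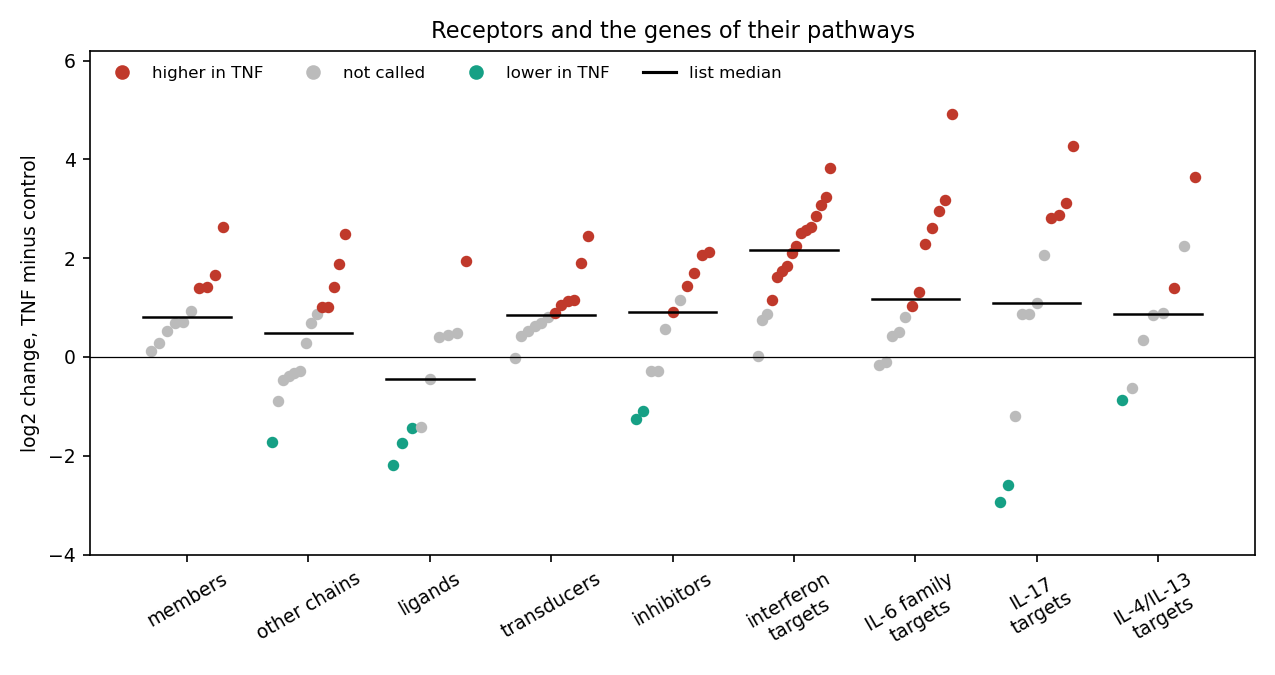
Log2 change of FPKM + 1, TNF minus control, for each tested row of the 10 members and of 8 lists of pathway genes, in red where called higher, in green where called lower and in grey where not called (limma, adjusted p below 0.05), with a black line at each list's median. The interferon target list has the highest median, at 2.17, and the ligand list the lowest, at -0.45.

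For each member that rose, the most similar profile was sought among 10059 other rows with a mean of at least 5 FPKM, by the root mean square difference of centred log2(FPKM + 1) values over the 6 libraries. The nearest row to Osmr was H2-Q4, a non-classical class I gene, at 0.10 log2 units, with 11.6, 17.4 and 17.1 FPKM in TNF libraries, against 1.49, 2.96 and 1.02 FPKM in control libraries. The nearest to Ifngr1 was the laminin gene Lamb2 at 0.08, to Ifngr2 the triglyceride synthesis gene Dgat2 at 0.06 and to Il4ra the gene Ldlrad4 at 0.08. With 6 libraries in 2 groups, such nearness describes these libraries only.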

How the data were processed

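Bulk RNA sequencing covered 6 libraries of sorted cells. Per the labels' protocols, RNA with a RIN above 7 was amplified from 5 ng with a SMARTer kit and made into Nextera libraries. Per the submitters' processing notes, the tools included TopHat2 2.1.1 and Cuffdiff 2.2.1, beside bcl2fastq and FastQC 0.10.1, and the build was mm10. Nothing used here states the strand setting or the treatment of duplicate fragments. What the authors deposited is 1 table of FPKM values, and 99.98% of its values above 0 have decimals, so tests made for counts were not applied. The table held 0 columns of other samples. Read depth is unknown, and the FPKM worth of 1 fragment, read from low values, lay between 0.874 and 1.08 relative to control replicate 1. FPKM summed to 688190 to 838417 per library in the TNF group and to 769766 to 837515 in the control group, and correlations across rows were 0.909 to 0.983 within the TNF group, 0.922 to 0.972 within the control group and 0.692 to 0.871 between them. TNF replicate 1 and control replicate 4 stood apart within their groups.

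Rows that reached 1 FPKM in 3 or more libraries were tested with limma 3.58.1 (R 4.3.3), its variance following the mean level, after the transform log2(FPKM + 1). The pseudocount of 1 understates the change of low genes. Benjamini-Hochberg adjustment ran over 15037 rows. No covariate was used and values were not rescaled. Chain ratios were compared by exact permutation. Positions come from the deposited table and count from 1, and exon overlaps are those of GENCODE M21. Genes that share a row, or exons, with another gene have uncertain values. Of those named, Il6ra, Il4ra, Stat3, Stat6, Irf9, Tap1, Psmb9, Bcl3, Cebpd, Ptpn6, Il17b, Lama3 and Itgb4 overlap another gene's exons.

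The members and the lists (8 of pathway genes, 14 of cell type markers) were chosen with earlier results of these data known. Genes named are the members, up to 4 called genes of each pathway list with the smallest p, Il13ra1, Il2rg, Il10rb and Lifr, and the row nearest in profile to each called member. Trp63, Itgb4, Lama3, Il10ra, Osm and Il6 were named after their values were seen. The 2 most abundant genes of each marker list, also part of the rule, are left out for length, apart from the merged Krt14 and Krt17 row. A gene that the rule names is not reported here. Of 232 symbols in the lists, 230 were matched. Alternatives were a pseudocount of 0.1, no filter, a filter of 5 FPKM, scaling by median of ratios, upper quartile, FPKM sum, quantiles or the HBC list, a robust variance, the replicate number as a block, each library left out, stricter calls (adjusted p below 0.01, or a 2-fold change besides), and leaving out control replicate 4 with TNF replicate 1. Scaling to Trp63, scaling to the HBC list with control replicate 4 left out, and list counts under other settings, were added after the data were seen.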

Additional observations from a re-analysis of the deposited data

How the results depend on the processing

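Osmr was called higher under all 21 alternatives, with log2 changes from 1.41 to 2.96. Il4ra was called under all but scaling to the HBC list, by which 1 member was higher, and Ifngr1 and Ifngr2 under all but that and the same scaling with control replicate 4 left out. That alternative gave 2 members higher and 2 lower, and 427 rows higher and 8335 lower. When each library was left out in turn, 4 to 5 members were higher and 0 lower, and 795 to 2016 rows were higher and 1609 to 4924 lower, where the full set gave 1635 and 4083. Without control replicate 4 and TNF replicate 1 together, 6 members were higher. Of the 12779 rows then tested, 2529 (19.8%) were higher and 4179 (32.7%) lower. Scaling to the HBC list gave 249 higher and 9886 lower rows, scaling to Trp63 917 higher rows, quantile normalization 2528 higher rows, an adjusted p below 0.01 787 higher and 2504 lower rows and a filter of 5 FPKM, which tests fewer rows, 2655 lower rows. The cause of the other differences was not tested. Median-of-ratios scaling gave 2282 higher and 3205 lower rows and moved the median of all rows to -0.01, and 6 members were then higher.

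The 6 members not called as deposited turned negative when scaled to the HBC list: Ifnar1 to -0.79, Ifnar2 to -0.69, Il6ra to -0.66, Il6st to -0.45, Il17ra to -1.02 and Il17rc to -0.64. With control replicate 4 left out besides, they were at -0.55, -0.49, -0.27, -0.55, -0.58 and -0.64 in the same order. Il17ra was also at -0.17 when scaled to Trp63 and at -0.0013 without TNF replicate 3, and leaving out 1 library at a time gave it -0.0013 to 0.29. Il6ra was called under quantile normalization (0.80). The difference in the log2 ratio of Ifngr2 to Ifngr1 was 0.02 and moved to -0.66 without control replicate 4 and TNF replicate 1. The labels share replicate numbers 1 and 4 between groups, but deviations of same-numbered libraries correlated at -0.06 and -0.09 across rows, so the numbers were not taken as pairs. With the replicate block, 744 rows were higher and 2246 lower, and the 4 members remained called. Control replicate 2 and TNF replicate 3 share their numbers with no other library. That fit therefore took its group difference from replicates 1 and 4 alone, the libraries that stood apart among them. Of 31 named pathway genes called, 14 lost the call when scaled to the HBC list (11 of 28 with control replicate 4 left out). The call was lost by 7 with the block, 2 when scaled to Trp63 and 0 to 2 under each other fit that tested them. The stricter calls (adjusted p below 0.01, or a 2-fold change besides) were not counted for these genes. Groups of 3 were not tested for outlying libraries.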
